A study of Mus musculus with 18 samples.

Results

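The comparison described here sets monocytes of STAT5 tetramer-deficient (DKI) mice against wild-type (WT) monocytes before any GM-CSF was added (day 0). Its members were those genes whose mean RPKM on day 0 exceeded 2 in at least one genotype, which made 9179 of the 20298 genes measured, and the libraries were 6 of the 18 in the series. RPKM is the number of reads on a gene, scaled to the length of the gene and to the mapped reads of the library. Both groups were Ly6C+ CCR2+ monocytes of the C57BL/6 strain per the labels (C57BL/6J for DKI in the methods), enriched from bone marrow by magnetic depletion of other cells and left untreated, with 3 libraries per genotype. DKI mice carry the substitutions I28A and F81A in both STAT5A and STAT5B in every cell of the body, so the marrow around the monocytes, and any cell left in the preparation, carried the same mutations. The number of mice behind a library, and their age, are not given in the sources used here. Where the same number appears on a WT and a DKI library, the 2 form a pair. The labels give the number only and do not say what the libraries of a pair shared.

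STAT5A and STAT5B are latent transcription factors that JAK2 phosphorylates when GM-CSF binds its receptor, a specific alpha chain joined to a beta chain shared with other cytokines. Phosphorylated STAT5 forms dimers that bind palindromic motifs in DNA, and pairs of dimers can join through their N-domains into tetramers on neighbouring weaker motifs. Classical monocytes arise in the marrow from dividing precursors, depend on the CSF1 receptor and leave for the blood by means of the chemokine receptor CCR2.

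The sequences below are reference transcript sequences of GENCODE on GRCm38 and are shown to place the engineered codons, which are in capitals. In Stat5a, codon 28 (chr11:100861419-100861421, plus strand) lies in exon 2 and codon 81 (chr11:100861833-100861835) in exon 3. In Stat5b, codon 28 (chr11:100808440-100808442, minus strand) also lies in exon 2 and codon 81 (chr11:100804912-100804914) in exon 3.
Stat5a codon 28: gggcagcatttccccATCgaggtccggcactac
Stat5b codon 28: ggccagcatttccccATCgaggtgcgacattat
Stat5a codon 81: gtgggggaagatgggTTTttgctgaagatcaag
Stat5b codon 81: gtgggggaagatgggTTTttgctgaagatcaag
The window around codon 81 is the same in both genes, so these bases alone cannot assign a read to one of them. RPKM counts reads per gene and does not show which libraries carried the substitutions.

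A second set is shown because joining (J) segments of the immunoglobulin loci gave the smallest p of the comparison and every rearranged heavy or kappa transcript carries one. The capitals mark the start of the conserved motif of the joining segment, TGGGG in the heavy chain and TTCGG in the kappa chain. The heavy chain segments lie at chr12:113428514-113429833 on the minus strand and the kappa segments at chr6:70722562-70723923 on the plus strand.
Ighj1: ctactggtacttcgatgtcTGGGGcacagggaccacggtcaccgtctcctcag
Ighj2: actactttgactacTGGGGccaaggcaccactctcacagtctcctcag
Ighj3: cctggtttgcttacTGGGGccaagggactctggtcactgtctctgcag
Ighj4: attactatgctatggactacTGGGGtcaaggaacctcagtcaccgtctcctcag
Igkj1: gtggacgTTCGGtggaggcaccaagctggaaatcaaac
Igkj2: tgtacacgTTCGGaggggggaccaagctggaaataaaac
Igkj4: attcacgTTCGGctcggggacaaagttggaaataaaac
Igkj5: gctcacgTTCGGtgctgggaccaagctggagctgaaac
These segments are 38 to 54 bases long, so their RPKM is set by few positions and is not comparable with that of whole genes.

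The labels name liver as the tissue, while the study's methods and the series description name bone marrow. Liver markers were at or near 0, with albumin (Alb) and transthyretin (Ttr) at 0 in all 6 libraries and Apoa2 between 0.222 and 0.413 RPKM. Of the classical monocyte markers, 20 of 20 were above the limit of 2 RPKM. The defining markers of T cells (Cd3e, Cd4, Cd8a), B cells (Ms4a1, Pax5) and endothelium (Cdh5, Emcn) were below 1 RPKM in every library. Estimated depth was between 29500000 and 43140000 reads per library. Within pairs 1, 2 and 3, the deviations of the WT and the DKI library from the mean of their genotype correlated across genes at 0.865, 0.686 and 0.844, and 83.5% of the variance between the 6 libraries lay between pairs, 7.95% between genotypes and 8.59% in the remainder.

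The most abundant transcripts of resting monocytes came from myeloid, cytoskeletal and mitochondrial genes. The 20 genes with the highest mean RPKM held between 10.1% and 11.7% of the summed RPKM of a library. Lyz2, which encodes lysozyme, stood first with 8768, 14266 and 12573 RPKM in the WT libraries of pairs 1, 2 and 3 and 9249.6, 11859 and 11121 RPKM in the DKI libraries, and the genotypes overlapped. It was followed by the actin gene Actb (mean of the 6 libraries 3656 RPKM), the lysosomal saposin precursor Psap (2949.9), the mitochondrial COX1 (2198), the intermediate filament gene Vim (1929), the mitochondrial ND1 (1831), the ferritin heavy chain gene Fth1 (1819.5), B2m (1775), the mitochondrial CYTB (1769) and the signalling adaptor Tyrobp (1575). Plac8 (1523), S100a4 (1474) and Ly6c2 (1405), which encodes the surface antigen Ly6C, were next. The rest were Lgals3 (1247), the actin regulators Coro1a (1182) and Pfn1 (1108), Arhgdib (1161), the alarmin S100a8 (1158), the mitochondrial ND6 (1147) and Igkc (1346), the constant region of the kappa light chain. Among these 20 genes, Igkc alone had an unadjusted p under 0.05 between genotypes, and the other 19 differed by at most 0.13 on the log2 scale in the paired fit.

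No gene passed the test for a difference between DKI and WT monocytes before GM-CSF. Genes were tested with limma on log2(RPKM + 1) with the pair as a block, so every log2 fold change below is DKI against WT on that scale, which understates the change of genes at low RPKM. A gene was called when its p, adjusted by Benjamini and Hochberg, was under 0.05 and its difference exceeded 1.5-fold. By this rule 0 of 9179 genes (0.0%) were called, and the smallest adjusted p was 0.124. At an unadjusted p under 0.05 there were 352 genes (3.83%), of which 204 (2.22%) were higher and 148 (1.61%) lower in DKI, where 459 would be under 0.05 if no gene differed. Without the replicate block 0 genes were called and 44 (0.479%) had an unadjusted p under 0.05, since the differences between pairs then count as error. In a fit of all 18 libraries 117 genes (1.27%) had an unadjusted p under 0.05 and 6 were called, all of them immunoglobulin genes. Leaving out pair 1 gave 0 calls and 540 genes at an unadjusted p under 0.05. Leaving out pair 2 gave 15 calls, which were immunoglobulin genes except for Lars2. Leaving out pair 3 gave 20 calls, which were immunoglobulin genes except for Jchain, Prss34 and Gzmb. Centring each library on its median gave 178 genes higher and 221 lower at an unadjusted p under 0.05, and quantile normalization gave 162 and 241, so the balance between the directions depended on the scaling.

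The differences were small for most genes. The median log2 fold change was −0.003, and the 95% interval of 8819 genes (96.1%) lay within a 1.5-fold change in either direction, with a median half-width of 0.16 on the log2 scale. Without the block this held for 5535 genes. A fold change above 1.5 was seen in 158 genes, 142 higher (1.55%) and 16 lower (0.174%), and 139 of the 158 were immunoglobulin genes. The other 19 were 13 genes higher and 6 lower in DKI. Outside the immunoglobulin genes, 261 of 9002 genes had an unadjusted p under 0.05, with 115 higher and 146 lower.

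**Figure D1:**
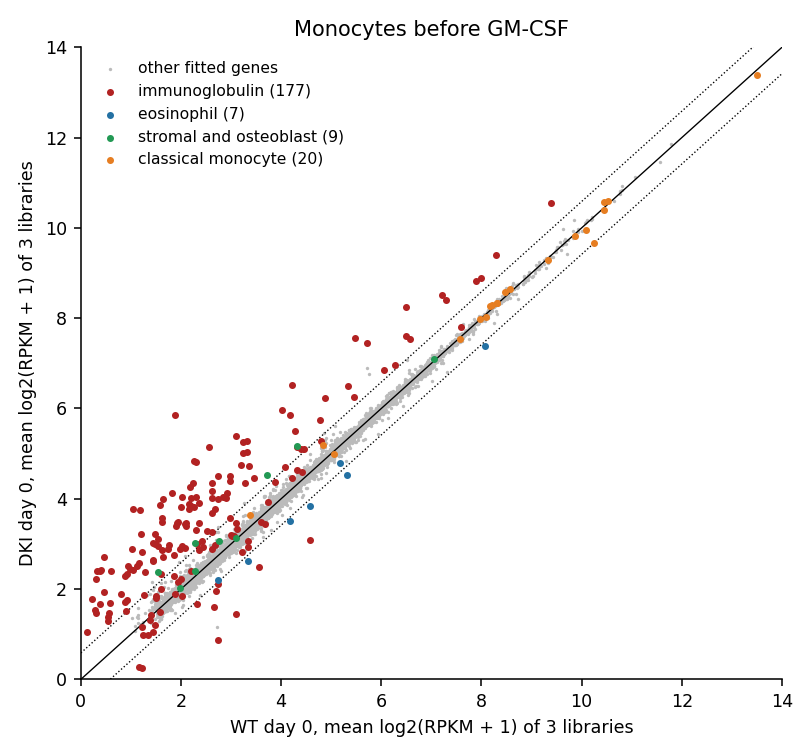
Mean log2(RPKM + 1) of the 3 DKI libraries against that of the 3 WT libraries for the 9179 genes fitted on day 0, with 1 point per gene, the diagonal as a solid line and a 1.5-fold change either way as dotted lines. Most of the 177 immunoglobulin genes (red) lie above the upper dotted line, eosinophil genes (blue) lie below the diagonal, and the 20 classical monocyte markers (orange) lie along it.

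Immunoglobulin transcripts were higher in the DKI library of every pair. Summed over all 260 immunoglobulin genes in the table, the level was 2088, 7916 and 2963 RPKM in the WT libraries of pairs 1, 2 and 3 and 5785, 18920.1 and 4536 RPKM in the DKI libraries, which is 2.77, 2.39 and 1.53 times the WT level. The WT library of pair 2 lay above the DKI libraries of pairs 1 and 3, so the genotypes overlapped and only the comparison within pairs separated them. Of the 260 genes, 93 were higher in DKI in all 3 pairs and 4 were lower in all 3, where 10.0% of the fitted genes were higher and 12.3% lower in all pairs. Because a gene can pass the limit of 2 RPKM through the higher group alone, the genes with a mean above 2 RPKM over all 6 libraries were counted too. High DKI libraries alone can still lift a gene past this second limit, so it lessens that selection and does not remove it. Of these 161 genes, 81 were higher and 2 lower at an unadjusted p under 0.05, against 2.22% and 1.61% of all fitted genes, and their median log2 fold change was 1.16 against −0.003 over all genes. Of all 177 fitted immunoglobulin genes, 89 were higher and 2 lower at that limit, and 42 were under it in either direction without the block. In bulk RNA, more cells of a type and more RNA per cell cannot be told apart.

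The constant regions, which name the antibody classes, differed in size. Ighg1 (IgG1) was at 15.1, 174 and 30.1 RPKM in WT and 94.7, 653 and 107 RPKM in DKI, and DKI was higher in each pair although the groups overlapped. Its log2 fold change was 2.09 ± 0.16 (standard error), with an adjusted p of 0.154 from limma. Ighg2c was at 11.4, 66.03 and 6.80 RPKM in WT and 68.01, 164 and 67.97 RPKM in DKI (2.31 ± 0.34), and all DKI libraries lay above all WT libraries, as in 0.719% of the fitted genes. Igkc was at 368, 1493 and 546 RPKM in WT and 1166, 3703 and 799 RPKM in DKI (1.17 ± 0.21). Igha (IgA) was at 145, 438 and 258 RPKM in WT and 391, 1173 and 235 RPKM in DKI, higher in pairs 1 and 2 and lower in pair 3. Ighm (IgM), which naive B cells and plasma cells share, was at 123, 215 and 268 RPKM in WT and 171, 239 and 268 RPKM in DKI, with a log2 fold change of 0.21 ± 0.10. IgM thus showed a smaller fold change than the class-switched IgG1 and IgG2c, and this difference between genes was not tested. IgA, also class-switched, was lower in DKI in pair 3, and the other IgG constant regions are not given here.

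Joining and variable segments were among the genes with the smallest p. Ighj2, whose sequence is given above, was at 98.1, 394 and 97.9 RPKM in WT and 232, 869 and 193 RPKM in DKI, a log2 fold change of 1.11 ± 0.07 with an unadjusted p of 1.35e-05, an adjusted p of 0.124 and similar ratios in the 3 pairs. Ighj3 (1.11), Ighj4 (1.73), Igkj2 (1.12) and the lambda segment Iglj1 (0.81) were also higher in each pair. Of the 11 joining segments with a mean above 2 RPKM, 10 were higher in DKI in all pairs. Among the heavy chain variable segments, Ighv1-81 was at 4.69, 5.87 and 1.98 RPKM in WT and 38.4, 25.9 and 19.9 RPKM in DKI, with no overlap between genotypes. Ighv1-4 (0.971, 2.01 and 0.418 against 4.55, 9.77 and 5.87 RPKM) and Ighv2-6 (0, 3.82 and 0.844 against 6.98, 42.5 and 6.40 RPKM) also had every DKI library above every WT library. Ighv1-80, Ighv1-76, Ighv8-8 and the kappa segment Igkv9-120 had log2 fold changes of 1.08, 0.77, 2.31 and 2.34. The largest fitted change was that of Igkv12-89, at 2.75, 7.48 and 0.545 RPKM in WT and 29.2, 552 and 10.7 RPKM in DKI, where the DKI library of pair 2 alone held most of the signal.

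A few variable segments went the other way, and the leading segment differed from library to library. Ighv4-1 was at 12.2, 9.48 and 1.15 RPKM in WT and 1.49, 1.42 and 0 RPKM in DKI (−1.88 ± 0.26), and Ighv1-5, Ighv6-3 and Ighv3-4 had log2 fold changes of −1.08, −1.49 and −0.96. The most abundant heavy chain segment was Ighv1-26, Ighv10-1 and Ighv6-3 in the WT libraries of pairs 1, 2 and 3 and Ighv5-16, Ighv1-26 and Ighv1-26 in the DKI libraries. The 10 most abundant variable segments held between 28.1% and 35.04% of the variable segment RPKM of a library, and between 75 and 150 segments were above 2 RPKM. Germline segments resemble each other to different degrees. Of its aligned bases, Ighv8-8 shared 96.1% and Ighv1-81 92.9% with its nearest relative, but Igkv12-89 shared 83.3% and Ighv4-1 74.2%. Reads of the closer segments may have been counted on the wrong member of a family.

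Jchain and Mzb1, genes of antibody-secreting cells, were higher in DKI in every pair, and early B cell genes were near the floor. Jchain, which joins IgM and IgA polymers, was at 31.3, 100.1 and 47.9 RPKM in WT and 79.3, 253 and 62.7 RPKM in DKI, a log2 fold change of 1.01 ± 0.20 (unadjusted p = 0.00435, adjusted p = 0.634, limma). Mzb1, a chaperone of antibody assembly, was at 0.683, 3.39 and 1.76 RPKM in WT and 1.85, 6.88 and 2.09 RPKM in DKI (0.59 ± 0.15). Xbp1, a secretory regulator that monocytes also express, was at 239, 220.3 and 184 RPKM in WT and 237, 236 and 214 RPKM in DKI, a log2 fold change of 0.10 ± 0.06. Prdm1 and Tnfrsf13b were at means of 20.3 and 17.7 RPKM with log2 fold changes of 0.06 ± 0.07 and −0.13 ± 0.08. Of the 11 plasma cell markers, 6 were fitted, 2 were higher and 0 lower at an unadjusted p under 0.05 (2.22% and 1.61% of all fitted genes), with 0 of either without the block, and their summed RPKM was 311, 375 and 279.5 in WT and 359.9, 547 and 325 in DKI. Among 16 B cell and precursor markers only Cd79b (mean 6.80 RPKM, −0.14 ± 0.09) was fitted, and 12 stayed below 1 RPKM in all libraries, Ms4a1 and Pax5 among them. The summed RPKM of this list was 8.93, 13.2 and 17.5 in WT and 8.43, 13.4 and 15.6 in DKI. The part of antibody-secreting cells in the immunoglobulin difference was not tested.

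The same direction was seen in most later libraries, at far lower levels. The immunoglobulin sum on day 3 of culture with GM-CSF was 76.5, 88.8 and 40.1 RPKM in WT and 591, 162 and 144.9 RPKM in DKI. On day 6 it was 41.8, 53.97 and 49.97 RPKM in WT and 299, 104 and 11.6 RPKM in DKI. DKI was the higher member in 3 of 3 pairs on day 3 and in pairs 1 and 2 on day 6.

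**Figure D2:**
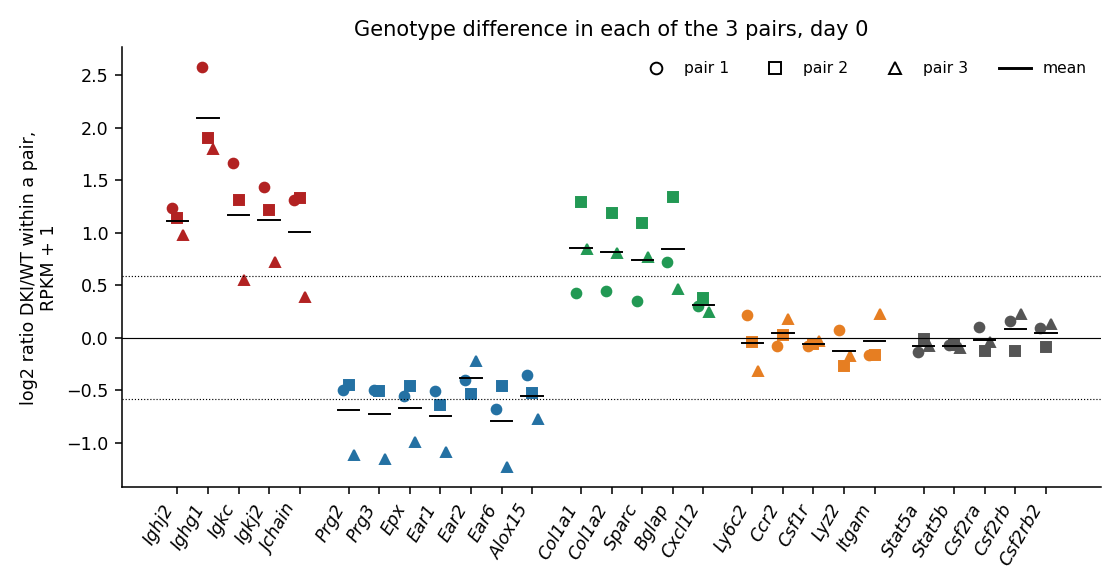
Log2 ratio of DKI to WT RPKM + 1 within each of the 3 pairs (circle, square and triangle) with the mean as a bar, and dotted lines at a 1.5-fold change. The immunoglobulin and plasma cell genes drawn (red) and the stromal and bone matrix genes drawn (green) lie above 0 in all pairs, the eosinophil genes drawn (blue) lie below 0 in all pairs, and the monocyte markers (orange) and the Stat5 and GM-CSF receptor genes (grey) lie within the dotted lines. Stat5a, Stat5b and Csf1r lie below 0 in all pairs.

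On day 0, eosinophil granule genes were lower in DKI in all pairs. Prg2, which encodes major basic protein, was at 169, 433 and 267 RPKM in WT and 119.7, 317 and 123 RPKM in DKI, with a log2 fold change of −0.69 ± 0.14 (unadjusted p = 0.00517, adjusted p = 0.678, limma). Epx, the eosinophil peroxidase, was at 11.2, 25.9 and 16.6 RPKM in WT and 7.32, 18.6 and 7.84 RPKM in DKI (−0.67 ± 0.12). Both differences were larger in pair 3 than in the other pairs, and the levels of the pairs overlapped. The ribonuclease Ear1 was at 9.38, 47.96 and 25.7 RPKM in WT and 6.31, 30.4 and 11.6 RPKM in DKI (−0.74 ± 0.12). Prg3 (−0.72), Ear6 (−0.79), Ear2 (−0.39) and the lipoxygenase gene Alox15 (−0.55) were lower as well. All 7 fitted eosinophil genes were lower at an unadjusted p under 0.05, as were 1.61% of all fitted genes, and none passed the adjusted limit, and without the block 0 of the 7 had an unadjusted p under 0.05. Their median log2 fold change was −0.69, and their mean over the 6 libraries was above 2 RPKM in each case. The surface markers of the lineage were low, with Siglecf between 0.841 and 1.55 RPKM and Ccr3 and Il5ra below 1 RPKM in all libraries. Ear genes are close copies of each other and their reads may be shared. On day 3 the summed RPKM of eosinophil granule genes was 1.89, 31.3 and 2.23 in WT and 25.9, 29.8 and 3.03 in DKI. On day 6 it was 28.5, 11.2 and 3.90 in WT and 46.3, 4.45 and 0.590 in DKI. DKI was thus the higher member in pairs 1 and 3 on day 3 and in pair 1 on day 6.

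Neutrophil and basophil genes showed no such common direction. Of 16 fitted neutrophil and granule markers, 1 was lower and 0 higher at an unadjusted p under 0.05 (1.61% and 2.22% of all fitted genes), with a median log2 fold change of −0.04. That gene was Retnlg, a secreted resistin relative of neutrophils, at 25.6, 32.5 and 9.75 RPKM in WT and 20.6, 22.03 and 7.91 RPKM in DKI (−0.37 ± 0.07). S100a8 and S100a9 were at means of 1158 and 1049.9 RPKM, and the granule proteases Prtn3 and Elane, made at the promyelocyte stage and by early monocytes, were at 385 and 303 RPKM with log2 fold changes of 0.0018 ± 0.10 and −0.23 ± 0.12. Mmp9 and Lcn2 had fold changes of 0.57 ± 0.25 and 0.31 ± 0.17 and did not pass. Among basophil and mast cell markers, Prss34 was at 60.9, 22.3 and 6.87 RPKM in WT and 29.5, 10.04 and 18.6 RPKM in DKI and Mcpt8 at 55.8, 21.2 and 4.83 RPKM in WT and 26.2, 11.05 and 17.4 RPKM in DKI. Both were lower in DKI in pairs 1 and 2 and higher in pair 3. Of 5 fitted members, 0 had an unadjusted p under 0.05, against 3.83% of all fitted genes.

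Several genes of bone matrix and stroma were higher in DKI in each pair, and none passed the adjusted limit. Col1a1 was at 15.96, 31.1 and 13.5 RPKM in WT and 21.8, 77.4 and 25.1 RPKM in DKI (0.85 ± 0.16), and Col1a2 at 10.1, 21.6 and 8.06 RPKM in WT and 14.2, 50.5 and 14.9 RPKM in DKI (0.82 ± 0.14). These encode the chains of type I collagen. Sparc (0.74 ± 0.15), the osteocalcin gene Bglap (0.84 ± 0.18) and Cxcl12 (0.31 ± 0.06), the niche chemokine of marrow, had log2 ratios above 0 in each pair too, and the log2 ratio was largest in pair 2 for all 5 genes. Of 19 stromal and osteoblast markers, 9 were fitted, 5 were higher and 0 lower at an unadjusted p under 0.05 (2.22% and 1.61% of all fitted genes), the median was 0.31, and 0 of the 9 were under 0.05 without the block. Spp1, which macrophages also make, was at 966, 72.1 and 31.6 RPKM in WT and 1059, 73.1 and 31.1 RPKM in DKI and followed the pair. Runx2 was at a mean of 8.14 RPKM (0.04 ± 0.09), and Col3a1, Lum and Lepr were below 1 RPKM in all libraries.

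Among the markers of the remaining cell types, Thy1 and Vcam1 alone had an unadjusted p under 0.05, next to 3.83% of all fitted genes. Of the erythroid genes, Car2 (3.91, 14.96 and 4.32 RPKM in WT, 2.21, 27.1 and 7.73 in DKI) and Hba-a2 (mean 8.49 RPKM) varied mainly between pairs, with fold changes of 0.31 ± 0.30 and −0.29 ± 0.30. Car1 differed by 0.40 ± 0.15. Platelet genes Ppbp (65.2 RPKM), Pf4 (34.95 RPKM), Itga2b and Gp9 had 0 of 6 members under p 0.05. Thy1, at 1.73, 2.59 and 3.36 RPKM in WT and 1.19, 2.43 and 2.22 RPKM in DKI, is a marker of T cells and was lower in each pair (−0.27 ± 0.10). Vcam1, an adhesion molecule of resident marrow macrophages, had a log2 fold change of −0.27 ± 0.08. The macrophage genes Adgre1 and Hmox1 were at means of 71.4 and 100.02 RPKM with 0.0018 ± 0.06 and 0.16 ± 0.15, and the complement genes C1qa, C1qb and C1qc were below 1 RPKM. Spic was at −0.20 ± 0.09. Dendritic cell genes Tcf4, Cd209a and Flt3 were at means of 7.81, 6.81 and 5.73 RPKM, and all 3 intervals lay within a 1.5-fold change.

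**Figure D3:**
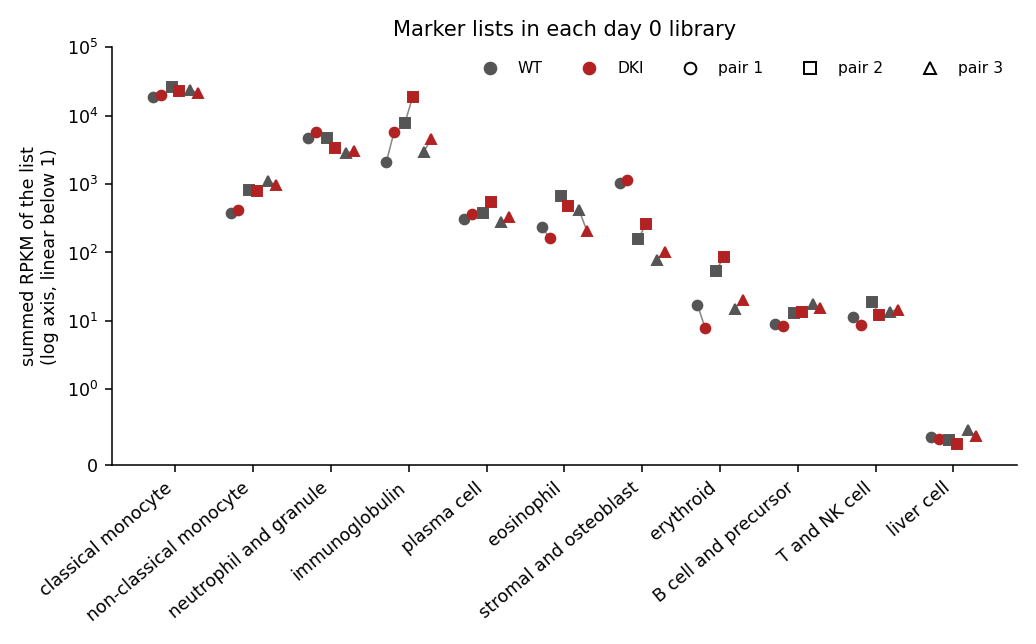
Summed RPKM of each marker list in each day 0 library, on a log axis that is linear below 1, with WT in grey, DKI in red, and a line joining the libraries of a pair (circle, square and triangle for pairs 1, 2 and 3). Immunoglobulin and stromal sums are higher and eosinophil sums lower in DKI in every pair, classical monocyte sums lie between 18786 and 26722 RPKM, and liver sums lie below 1.

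Of the classical monocyte markers, as of all fitted genes, none passed the test. Ly6c2 was at 953, 1624 and 1762 RPKM in WT and 1104, 1579 and 1411 RPKM in DKI (−0.05 ± 0.11), Ccr2 at 182, 333 and 515 RPKM in WT and 172, 339 and 584 RPKM in DKI (0.04 ± 0.07), and Csf1r at 249, 320.3 and 248 RPKM in WT and 235, 308 and 243 RPKM in DKI (−0.06 ± 0.05). Each varied more between pairs than between genotypes. Of the 20 markers, 18 (against 96.1% of all fitted genes) had a 95% interval within a 1.5-fold change, and the median log2 fold change was 0.02. The exceptions were Chil3, a chitinase-like protein, at 1443, 1481 and 823 RPKM in WT and 1581, 406 and 825 RPKM in DKI, and Vcan, a matrix proteoglycan, at 56.1, 38.6 and 9.22 RPKM in WT and 65.96, 22.1 and 30.7 RPKM in DKI. In both genes the pairs disagreed, with Chil3 lower in pair 2 and at similar levels in the others. Fcgr1, the high-affinity IgG receptor CD64, was the one marker with an unadjusted p under 0.05, at 3.48, 14.5 and 15.1 RPKM in WT and 4.19, 17.1 and 19.8 RPKM in DKI (0.27 ± 0.06, adjusted p = 0.699, limma), higher in each pair. The 11 non-classical markers were led by Nr4a1, Spn, Itgal and Cx3cr1 at means of 418, 132, 105 and 42.2 RPKM. Their sum was 384, 821 and 1095 RPKM in WT and 417, 802 and 984 RPKM in DKI, and Cd36 (−0.26 ± 0.08) was the one member with an unadjusted p under 0.05, with Treml4 and Pou2f2 at 0.25 ± 0.20 and 0.25 ± 0.10.

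The mutated genes and the GM-CSF receptor genes, like every fitted gene, did not pass the test. Stat5a was at 13.4, 13.1 and 17.1 RPKM in WT and 12.1, 12.99 and 16.1 RPKM in DKI, and Stat5b at 25.6, 28.7 and 38.8 RPKM in WT and 24.3, 27.3 and 36.3 RPKM in DKI. The 95% interval of the Stat5a log2 fold change ran from −0.21 to 0.06 and that of Stat5b from −0.19 to 0.03. Both were slightly lower in DKI in each pair, as were 12.3% of all fitted genes. Csf2ra, the alpha chain, was at 132, 174 and 164 RPKM in WT and 142, 159 and 159 RPKM in DKI (−0.02 ± 0.06). Csf2rb, the common beta chain, was at 141, 160.2 and 70.6 RPKM in WT and 157, 146 and 82.8 RPKM in DKI (0.09 ± 0.08), and its close copy Csf2rb2, the IL-3-specific beta chain, at 37.9, 30.7 and 17.6 RPKM in WT and 40.6, 28.9 and 19.3 RPKM in DKI (0.05 ± 0.06). In all 18 genes of GM-CSF receptor and JAK-STAT signalling the 95% interval lay within a 1.5-fold change, against 96.1% of all fitted genes, from the phosphatases Ptpn6 (mean 348 RPKM) and Ptpn1 (92.2 RPKM) to Stat4 (−0.10 ± 0.09). Jak3 was the one with an unadjusted p under 0.05, at 3.95, 3.74 and 5.65 RPKM in WT and 4.63, 4.42 and 8.24 RPKM in DKI (0.28 ± 0.08).

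Known targets of STAT5 were too low for the fit or, like every fitted gene, did not pass the test before GM-CSF. The feedback inhibitors Cish and Socs2, which STAT5 induces, were at 1.63, 3.66 and 0.497 RPKM and 0.0794, 0.131 and 0.0569 RPKM in WT and at 1.55, 3.78 and 0.376 RPKM and 0.153, 0.180 and 0.125 RPKM in DKI, too low for the fit. The survival gene Mcl1, the kinase gene Pim1 and the repressor gene Bcl6 had means of 402, 271 and 61.6 RPKM with fold changes of 0.01 ± 0.05, −0.08 ± 0.08 and −0.0035 ± 0.10. Of 12 fitted targets, 1 was higher and 1 lower at an unadjusted p under 0.05, against 3.83% of all fitted genes in either direction. The cytokine gene Osm was at 49.6, 65.6 and 77.9 RPKM in WT and 46.2, 52.1 and 60.1 RPKM in DKI (−0.27 ± 0.07), and the cyclin gene Ccnd3 at 40.4, 84.3 and 109 RPKM in WT and 45.3, 92.8 and 129 RPKM in DKI (0.18 ± 0.05). Both had the same sign in all pairs, and Pim3 (−0.14 ± 0.08) did not pass. Of 15 other fitted receptors for growth factors and cytokines, led by Csf1r, Ifngr1, Il6ra and Ifngr2, 0 had an unadjusted p under 0.05 and all 15 intervals lay within a 1.5-fold change (96.1% of all fitted genes), with Il10ra, Ifnar2 and Il4ra at −0.12, −0.10 and 0.10.

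Transcription factors of the lineage, again like every fitted gene, did not pass the test. Nr4a1, Cebpb, Spi1 and Klf6 were the most abundant, with Spi1 (PU.1), which defines the myeloid fate, at 385, 371 and 306 RPKM in WT and 425, 367 and 304 RPKM in DKI. Of 24 fitted factors, 22 had an interval within a 1.5-fold change, against 96.1% of all fitted genes. Irf1, an interferon-induced factor, was lower (23.7, 23.7 and 59.8 RPKM in WT, 23.3, 19.96 and 50.5 RPKM in DKI, −0.17 ± 0.06) and Klf2, a factor of quiescence, higher (20.5, 27.3 and 92.4 RPKM in WT and 23.4, 30.6 and 114 RPKM in DKI, 0.22 ± 0.05) at an unadjusted p under 0.05. Runx3, Irf4 and Irf7 had fold changes of 0.29 ± 0.16, 0.28 ± 0.15 and 0.22 ± 0.14. Among 13 immediate early and stress genes, led by Zfp36, Junb, Atf3 and Fos, 3 were higher and 0 lower at an unadjusted p under 0.05 (2.22% and 1.61% of all fitted genes), and 0 were under 0.05 without the block. The mean was higher in DKI for 7 of the 13, and Atf3 had a log2 fold change of −0.21 ± 0.10. Fosb was at 9.63, 18.9 and 178 RPKM in WT and 11.4, 38.1 and 241 RPKM in DKI (0.55 ± 0.15), higher in each pair. The heat shock gene Hspa1a was at 2.46, 2.91 and 3.37 RPKM in WT and 2.70, 5.20 and 8.57 RPKM in DKI (0.63 ± 0.20). Its near copy Hspa1b was at 2.44, 2.83 and 5.18 RPKM in WT and 2.22, 6.56 and 16.5 RPKM in DKI (0.80 ± 0.30), and the difference was largest in pair 3 for both.

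Genes for antigen presentation were expressed before GM-CSF. H2-DMa, Cd74, H2-DMb1 and H2-Aa had means of 104, 82.5, 29.97 and 23.98 RPKM. Of 7 fitted MHC class II genes, 0 had an unadjusted p under 0.05, against 3.83% of all fitted genes. A list of 7 is too short to be told apart from that share. Of the co-stimulatory genes, Cd83 was at 129, 81.9 and 71.4 RPKM in WT and 127, 65.9 and 56.4 RPKM in DKI (−0.22 ± 0.08, unadjusted p = 0.0375), while Cd80 (0.14), Cd82 (−0.02), Cd86 (0.05) and Cd40 (−0.05) had larger p.

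Among inflammatory and interferon genes, 15 of the 16 interferon-stimulated genes measured had a higher mean in DKI, but only 2 were higher in all pairs, and 52.1% of all fitted genes had a log2 fold change below 0. The summed RPKM of this list was 1.08, 1.22 and 0.921 times that of WT in pairs 1, 2 and 3, so pair 3 went the other way. Of 15 fitted interferon-stimulated genes, 2 were higher and 0 lower at an unadjusted p under 0.05 (2.22% and 1.61% of all fitted genes) and 0 were under 0.05 without the block. These were Oas1a (12.7, 14.1 and 14.5 RPKM in WT, 17.2, 20.9 and 14.6 RPKM in DKI, 0.31 ± 0.11) and Zbp1 (0.25 ± 0.08). The median log2 fold change of the fitted members was 0.12. Of these 15, 13 had a mean above 2 RPKM over all 6 libraries, and the others passed the limit through the higher genotype alone. Ifi204, Bst2, Cxcl10 and Irf7 were the most abundant. Of 12 fitted chemokines, 1 was higher (Cxcl12, at 0.31 ± 0.06) and 2 lower at an unadjusted p under 0.05, against 2.22% and 1.61% of all fitted genes, and 0 were under 0.05 without the block. Ccl3 was at 525, 104 and 504 RPKM in WT and 513, 72.1 and 359.9 RPKM in DKI (−0.35 ± 0.11) and Ccl2 at 94.6, 80.9 and 329 RPKM in WT and 94.1, 61.98 and 263 RPKM in DKI (−0.24 ± 0.08). These were the 2 lower genes, and Ccl4 (−0.41 ± 0.20) and Cxcl10 (−0.35 ± 0.25) did not pass, while Ccl6 and Ccl9 were at means of 307 and 209 RPKM. None of 5 fitted chemokine receptors (led by Ccr2, Cxcr4, Ccr1 and Cx3cr1), 8 Toll-like receptor pathway genes (led by Tlr2, Myd88, Ticam1 and Tlr4) and 5 NADPH oxidase genes (led by Cyba, Ncf1, Rac2 and Ncf4) had an unadjusted p under 0.05. Over all fitted genes the share was 3.83%, and lists this short cannot be told apart from it. The largest difference in these lists was that of Tlr2, at 369.5, 412 and 489 RPKM in WT and 392, 254 and 398 RPKM in DKI. Of 6 Fc receptor genes, led by Fcer1g, Fcgr3, Fcgr2b and Fcgrt, Fcgr1 alone had an unadjusted p under 0.05.

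Of the cell cycle and ribosomal protein genes fitted, 1 of 22 and 3 of 77 had an unadjusted p under 0.05, against 3.83% of all fitted genes. Of 22 cell cycle genes, all fitted, 22 had an interval within a 1.5-fold change, against 96.1% of all fitted genes. Top2a, Ube2c, Mcm6 and Mki67, which mark dividing cells, were at means of 197, 143, 143 and 134 RPKM. Pcna, the replication clamp, was at 121, 135 and 123 RPKM in WT and 138, 149 and 129.97 RPKM in DKI (0.13 ± 0.05), the one member with an unadjusted p under 0.05. Of 77 fitted ribosomal protein genes, led by Rpl8, Rplp1 and Rplp2, 0 were higher and 3 lower at an unadjusted p under 0.05 (Rps28, Rpl37a and Rpl35a), next to 3.83% of all fitted genes in either direction, and 24 of the 82 measured had a higher mean in DKI. Rps28 was at 10.6, 11.02 and 11.8 RPKM in WT and 8.86, 8.19 and 9.49 RPKM in DKI, with all DKI libraries below all WT libraries as in 0.316% of the fitted genes (−0.30 ± 0.06), and Rpl12 and Rps13 at −0.46 ± 0.19 and 0.23 ± 0.10 did not pass.

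Genes near the Stat5 locus had a small p more often than genes elsewhere. This window was chosen after the values were seen, so the counts are given as a description without a test. Within 5 Mb of the start of Stat5a on chromosome 11, 20 of 119 fitted genes (16.8%) had an unadjusted p under 0.05, 9 higher and 11 lower in DKI. The share was 17.7% of 62 genes within 2 Mb, 13.6% of 176 within 10 Mb and 3.10% of the 612 genes on the rest of that chromosome, against 2.90% of all genes other than immunoglobulins. Without the block 0 genes of the window had an unadjusted p under 0.05.

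The leading gene of the window was Hrob, a homologous recombination factor, at 16.1, 13.3 and 9.77 RPKM in WT and 11.3, 9.25 and 6.76 RPKM in DKI. Its log2 fold change was −0.48 ± 0.05, with an unadjusted p of 0.000183 and an adjusted p of 0.218 from limma, the smallest p outside the immunoglobulins. Rdm1, a single-strand annealing factor, was at 13.4, 17.2 and 21.6 RPKM in WT and 9.70, 13.8 and 16.2 RPKM in DKI (−0.37 ± 0.05), and Igfbp4, a binding protein of insulin-like growth factors, at 19.3, 33.9 and 48.9 RPKM in WT and 28.7, 45.6 and 58.6 RPKM in DKI (0.41 ± 0.07). Hrob had nearly the same ratio in all pairs, while that of Igfbp4 was largest in pair 1 and smallest in pair 3, and the RPKM of the groups overlapped. Arl5c (−0.39), Plxdc1 (−0.43), Coa3 (−0.25), Smarce1 (−0.23), Nkiras2 (−0.22) and Dusp3 (−0.21) were lower, and Pgap3 (0.30) and Ifi35 (0.29) higher. Of the 20 genes, 9 (45.0%) had the same sign in all 9 pairs of days 0, 3 and 6, among them Igfbp4, Coa3, Smarce1, Nkiras2 and Pgap3. Of the 241 other genes with an unadjusted p under 0.05, immunoglobulins aside, 60 (24.9%) did so. Both sets were chosen on their day 0 difference, which supplies 3 of these 9 signs. Over the 6 later pairs alone, 11 of the 20 genes (55.0%) and 95 of the 241 (39.4%) had the day 0 sign in at least 5, as did 33.0% of all fitted genes. The difference between these shares was not tested. Within the window, Naglu, Map3k14, Plxdc1 and Dusp3 had the day 0 sign in 0 of 3 pairs on day 3 and 0 of 3 on day 6. Hrob had it in 1 of 3 pairs on day 3 and 2 of 3 on day 6. Kpna2, a nuclear import receptor 6.13 Mb from Stat5a, was at 3.15, 8.21 and 6.54 RPKM in WT and 0.303, 0.421 and 5.15 RPKM in DKI (−1.55 ± 0.45), lower in each pair and least so in pair 3.

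**Figure D4:**
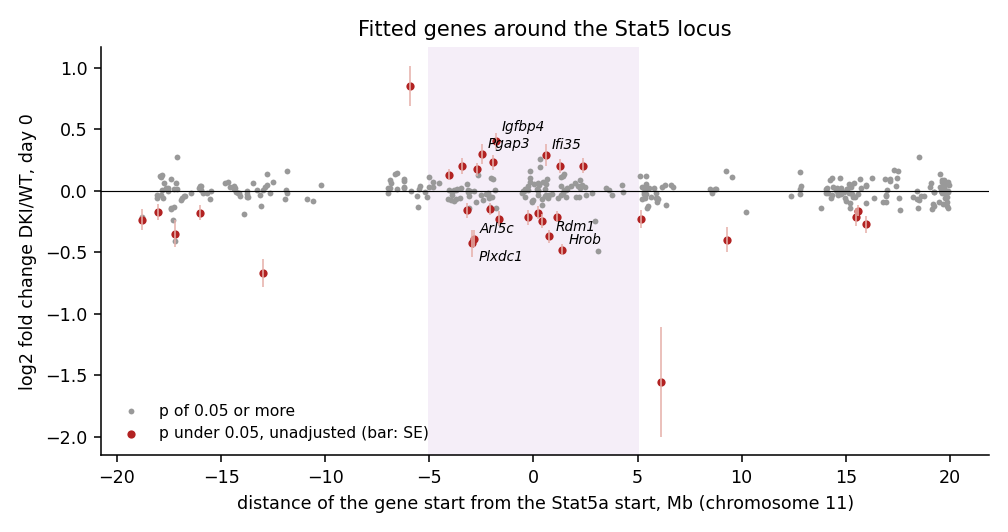
Log2 fold change of DKI against WT on day 0 for fitted genes up to 20 Mb from the start of Stat5a on chromosome 11, with genes at an unadjusted p under 0.05 in red with their standard error and all others in grey. The shaded 10 Mb hold 20 red points among 119 genes, with Hrob lowest and Igfbp4 highest among them.

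Outside these groups, single genes with the smallest unadjusted p were chosen after their values were seen. Trf, the transferrin gene, was at 45.4, 87.3 and 83.8 RPKM in WT and 35.4, 66.5 and 66.9 RPKM in DKI (−0.35 ± 0.04), lower in each pair. Ide, the insulin-degrading enzyme, was at 24.2, 26.8 and 36.99 RPKM in WT and 20.5, 20.7 and 28.05 RPKM in DKI (−0.33 ± 0.05). Selp (P-selectin, 0.54 ± 0.08) and the metallothionein Mt2 (0.47 ± 0.08) were higher and the clock-controlled factor Tef (−0.34 ± 0.06) lower in each pair. Their adjusted p lay between 0.373 and 0.458.

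The pairs differed from each other far more than the genotypes did. The means of pairs 1 and 3 differed by over 1.5-fold in 2454 genes, those of pairs 1 and 2 in 1593 and those of pairs 2 and 3 in 1344, while DKI and WT differed by that much in 180, 263 and 193 genes within pairs 1, 2 and 3. Pair 1 stood apart in several of the genes that varied most between the pairs, and those given here were chosen after their values were seen. Trib3 was at 93.7, 0.657 and 1.15 RPKM in WT and 101, 0.836 and 1.58 RPKM in DKI, and Asns, the asparagine synthetase, at 109.7, 4.39 and 3.14 RPKM in WT and 119, 5.66 and 4.02 RPKM in DKI. The same held for Chac1 (74.6, 0.648 and 5.58 RPKM in WT and 85.96, 0.812 and 6.93 RPKM in DKI), for Gpnmb (177, 6.30 and 1.90 RPKM in WT and 170.1, 6.23 and 2.06 RPKM in DKI) and for the interleukin 1 receptor antagonist Il1rn (270.4, 18.2 and 9.51 RPKM in WT and 262, 15.2 and 10.7 RPKM in DKI). Both libraries of pair 1 were high and all 4 other libraries low, so the genotypes shared this difference, and what set pair 1 apart was not tested.

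Of the genes called after GM-CSF that were fitted on day 0, 91.7% to 96.4% had a day 0 interval within a 1.5-fold change. Over all fitted genes the share was 96.1%. Of the genes tested on day 3, 551 of 9740 (5.66%) were called between DKI and WT in the paired fit of that day, and 719 of 9842 (7.31%) on day 6. Of the 288 genes called lower on day 3, 156 were expressed enough to be fitted on day 0, and 150 of them (96.2%) had a day 0 interval within a 1.5-fold change, as did 207 of the 217 fitted genes called higher. For day 6 it was 265 of 275 fitted genes called lower and 198 of 216 called higher. The genes too low to be fitted on day 0 have no such interval. They were 46 of the 263 called higher on day 3, and 159 of 434 lower and 69 of 285 higher on day 6. At an unadjusted p under 0.05 on day 0 there were 7.69% of the fitted genes called lower and 10.1% of those called higher on day 3, and 5.45% and 9.26% for day 6, against 3.83% of all genes. Of these 12, 22, 15 and 20 genes, 7, 7, 10 and 3 differed in the later direction already on day 0. The median day 0 log2 fold change in these 4 sets was −0.01, −0.01, −0.01 and 0.00, and the share of 96.1% over all genes stands beside these.

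Of the 16 genes that the study uses for monocyte-derived dendritic cells, 11 were fitted on day 0. Of these, 1 (Cd83) had an unadjusted p under 0.05, against 3.83% of all fitted genes. Ccl17, the chemokine that recruits CCR4-bearing T cells, was at 0.0463, 0.184 and 0.717 RPKM in WT and 0, 0 and 1.98 RPKM in DKI, and Ccl22, Ccr7, Ikzf4 and Batf3 had group means of at most 1.06 RPKM. Cd209a was at 2.004, 8.31 and 10.4 RPKM in WT and 2.13, 11.04 and 7.003 RPKM in DKI, Id2 had a fold change of −0.10 ± 0.04, and H2-Ab1 and Ccl5 had 0.04 ± 0.14 and −0.24 ± 0.25. Of the 9 macrophage genes, 6 were fitted and 1 (Fcgr1) had an unadjusted p under 0.05, beside the same 3.83%. Mrc1 was at 1.42, 3.30 and 4.38 RPKM in WT and 1.35, 3.79 and 3.39 RPKM in DKI, Fcgr4 at 3.86, 6.56 and 5.50 RPKM in WT and 2.92, 3.86 and 6.69 RPKM in DKI and Pf4 at 10.4, 42.2 and 45.2 RPKM in WT and 19.1, 59.7 and 33.2 RPKM in DKI. The efferocytosis receptor gene Mertk and the scavenger receptor gene Stab1 stayed below 1 RPKM in all 6 libraries. The study chose these lists on cells of the later days, so their day 0 values are a description.

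The change in the genotype difference with culture was tested as an interaction. It exceeded 1.5-fold at an adjusted p under 0.05 in 1040 of 10212 genes (10.2%) for day 3 and in 1401 of 10353 (13.5%) for day 6. Both tests share the day 0 libraries. The counts depended on single pairs, at 866, 35 and 133 genes for day 3 without pair 1, 2 or 3 and at 150, 1305 and 26 genes for day 6.

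**Figure D5:**
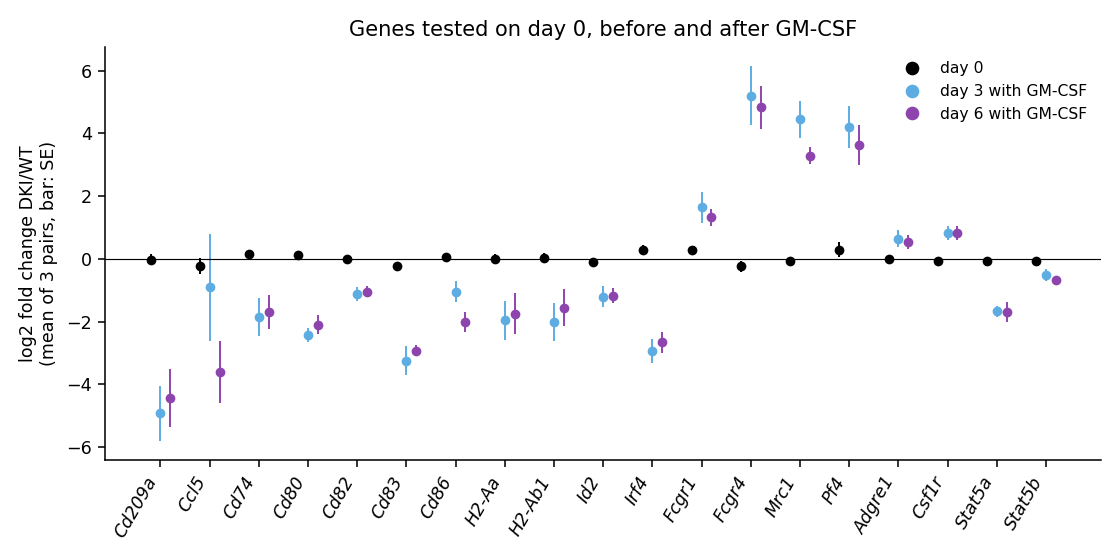
Log2 fold change of DKI against WT on day 0 (black), day 3 (blue) and day 6 (purple) for the genes of the study's lists that were fitted on day 0 and for Stat5a and Stat5b, as the mean of 3 pairs with its standard error. The day 0 values lie between −0.24 and 0.29, while after GM-CSF Cd209a and Cd83 lie below −2 and Mrc1 and Fcgr4 above 2.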

How the data were processed

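Polyadenylated RNA was sequenced in single-end reads from 6 day 0 libraries among 18. The authors mapped reads to mm10 with Subread, counted them on RefSeq genes with featureCounts and deposited RPKM values, and the versions, strandedness and treatment of reads with several matches are not given in the sources used here. The study tested counts with edgeR, which was not run here because counts were not used here.

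From the deposited RPKM, log2(RPKM + 1) was fitted with limma 3.58.1 in R 4.3.3, with the pair as a block and an intensity trend, for genes with a mean RPKM above 2 in either genotype. Genes were called at a difference over 1.5-fold with a p under 0.05 after adjustment by Benjamini and Hochberg. Replicate numbers came from the labels, which do not say that pairs were prepared together. Every same-numbered correlation of deviations was over 0.1, between 0.686 and 0.865. With the pair as a block, p-values measure the spread of the 3 differences within pairs, with the spread of other genes taken into account. They do not measure the spread between the samples of a genotype. Log2 fold changes are printed with the standard error of the fit.

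Estimated depths of 29500000 to 43140000 reads came from whole-read steps in 297 single-exon genes, where 141 of 146 low values (96.6%) were whole within 0.05 reads. A floor of 3 reads is 0.102 RPKM for a 1 kb gene at the lowest depth, for counting error only. Named genes were Stat5a, Stat5b and the GM-CSF receptor genes, the 20 with the highest mean, the 12 per direction with the smallest p among those over 1.5-fold with 1 sign in all pairs, and from each list the 4 most abundant and the 3 with the largest changes, with defining markers near 0 and the lists of the study. The members and lists were chosen with earlier results of these data known. The fits were tested on simulated data. Some genes that this rule names are not reported here. The table held none of the listed sex-linked genes. Sequences and positions came from GENCODE and RefSeq on GRCm38, the build of mm10, and 20082 of 20298 gene identifiers were found in RefSeq.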

Additional observations from a re-analysis of the deposited data

Results flagged for a closer look

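The genotype difference on a later day minus that on day 0 was tested as an interaction with limma, and the results past an adjusted p of 0.05 are listed here as differences on the log2 scale. They were past 1.5-fold in 1040 genes for day 3 and 1401 for day 6, but in 297 and 290 without the replicate block and in as few as 35 and 26 with a pair left out. Negative values mean that DKI was lower relative to WT after GM-CSF than before it.

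For day 3, the transcripts of the mutated gene Stat5a differed by −1.60. Among dendritic cell genes the difference was −4.40 for Ccr7, −4.90 for Cd209a, −7.29 for Ccl17, −4.45 for Ccl22, −2.57 for Cd80, −1.10 for Cd82, −3.03 for Cd83, −2.51 for Ikzf4 and −3.21 for Irf4. Among macrophage genes it was 5.44 for Fcgr4, 4.51 for Mrc1, 3.91 for Pf4, 5.37 for Stab1, 0.88 for Csf1r and 2.79 for Mertk.

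For day 6, it was −1.61 for Stat5a and −0.60 for Stat5b. Dendritic cell genes differed by −3.70 (Ccr7), −4.41 (Cd209a), −6.89 (Ccl17), −4.26 (Ccl22), −2.23 (Cd80), −1.03 (Cd82), −2.71 (Cd83), −2.06 (Cd86), −1.38 (Batf3), −1.08 (Id2), −2.91 (Ikzf4) and −2.94 (Irf4). Macrophage genes differed by 5.06 (Fcgr4), 3.35 (Mrc1), 3.34 (Pf4), 4.04 (Stab1), 0.87 (Csf1r) and 2.08 (Mertk). The day 0 libraries enter both tests, and the study chose these genes on cells of the later days.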

How the results depend on the processing

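No alternative reversed a called gene, since 0 were called, and the 49 named genes with an unadjusted p under 0.05 kept their sign under every setting. Of 2296 values of all 193 named genes under other settings, 124 in 77 genes had the other sign, 93 of them with a pair left out and 31 (at most 0.07 from 0) under other scalings or the pseudocount of 0.1, and 8 moved by more than the SD of the pairs. Without the replicate block, 44 genes had an unadjusted p under 0.05 in place of 352, 5535 in place of 8819 had an interval within 1.5-fold, and the interactions gave 297 genes for day 3 and 290 for day 6 in place of 1040 and 1401. With no filter on low values the numbers were 729, 15508 and, for day 6, 784. With all 18 libraries in a fit, 6 genes were called, all immunoglobulins, and 117 had an unadjusted p under 0.05. The fit of all 18 libraries with no replicate block, chosen after seeing the data, gave 6 calls, 88 genes and 5468 intervals. Leaving out each pair in turn gave 0 to 20 calls, 270 to 540 genes at an unadjusted p under 0.05, 8620 to 8834 intervals within 1.5-fold, 35 to 866 genes for day 3 and 26 to 1305 for day 6. With 2 pairs left, the spread is estimated from 1 difference per gene and the trend. Rescaling to the sum without immunoglobulin genes moved the log2 ratio of list sums by at most 0.00763, and no scaling moved the median of all genes beyond 0.02. At these depths and with 3 pairs, the intervals of 360 genes reach past 1.5-fold, 175 of them immunoglobulin genes, through a large difference, a large error or both.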

Other observations

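Some genes differed by several fold within pairs without a common direction, and they were chosen after their values were seen. Lars2, the mitochondrial leucyl-tRNA synthetase, was at 22.7, 102 and 57.1 RPKM in WT and 121, 42.1 and 313 RPKM in DKI for pairs 1, 2 and 3, so it was higher in DKI in pairs 1 and 3 and lower in pair 2. Gzmb, a protease of cytotoxic granules, was at 15.7, 5.77 and 0.260 RPKM in WT and 6.59, 1.93 and 1.19 RPKM in DKI, lower in pairs 1 and 2 and higher in pair 3.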
